A study of Mus musculus with 8 samples.

Results

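Genes that make, break down and relay the signal of cyclic GMP (cGMP) were described in RNA-seq of whole mouse aortas. They were 10 genes, matched by symbol in a table of 48607 assembled loci, and each symbol was found. Where a symbol named several loci, the locus with the largest count over all libraries was taken. The members were the subunits of soluble guanylate cyclase (Gucy1a1, Gucy1a2 and Gucy1b1), both cGMP-dependent protein kinases (Prkg1 and Prkg2), the phosphodiesterases Pde5a, Pde1a, Pde3a and Pde2a, and Mrvi1, a partner of the kinase. All mice lacked ApoE (ApoE-/-), which makes them prone to atherosclerosis, and ate a Western diet for 12 weeks before their aortas were taken. In ApoE-/-NPRC-/- mice, natriuretic peptide receptor C, encoded by Npr3, was inactivated as well, by a CRISPR frameshift in every cell of the animal rather than in 1 cell type. The titles give 5 ApoE-/- libraries, called 1 to 5 here, and 3 ApoE-/-NPRC-/- libraries, called 1 to 3. The genotype entered for each sample contradicted the title for 4 of the 8, namely ApoE-/- 4 and 5 and ApoE-/-NPRC-/- 1 and 2. Groups below are those of the title, and the edgeR fit and the exact permutation tests between groups were repeated by genotype entry. DESeq2 and limma were fitted by title only. The age of these mice at the start of the diet is not given in the sources used here. The comparison addresses whether the RNA of the cGMP pathway differed between aortas with and without the receptor.

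Nitric oxide activates soluble guanylate cyclase, a dimer of an alpha and a beta subunit that makes cGMP. Natriuretic peptides act through Npr1 and Npr2, receptors that carry their own guanylate cyclase, whereas the receptor C binds and clears the peptides. In vascular smooth muscle, cGMP switches on the kinase encoded by Prkg1, which relaxes the cell, partly through the Mrvi1 protein (also called IRAG) at the calcium store, and phosphodiesterases end the signal.

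Total counts were between 62969165 and 86693276 per library, and no 2 libraries had the same counts. Levels are given as FPKM, fragments scaled to the kilobases of the transcript and the mapped fragments of the library. Npr3 itself was at 1.69, 0.93, 0.62, 1.01 and 1.67 FPKM in ApoE-/- 1 to 5 and at 1.18, 1.39 and 1.13 FPKM in ApoE-/-NPRC-/- 1 to 3, with a log2 fold change of 0.10 (SE 0.28), and 0.16 (SE 0.28) by genotype entry. The groups overlapped under both labels, so the RNA of the targeted gene, which carries a frameshift, checks neither. The submitters count 1 mouse for each library, so the p-values below measure the spread between mice and their libraries.

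Grouped by title, Mrvi1, Pde3a and Gucy1b1 were higher in ApoE-/-NPRC-/- aortas at an unadjusted p-value under 0.05, by 0.87, 0.51 and 0.45 on the log2 scale. At that level 0 members were lower, beside 7.13% of all loci. Those higher were 3 of the 9 members with enough signal to be tested, where 13.6% of all 20506 loci passed the same threshold, 6.51% in the higher direction. After Benjamini-Hochberg adjustment of the edgeR quasi-likelihood p-values over all loci, no member was under 0.05 (smallest adjusted p = 0.26), and neither was any of the 20506 loci (smallest adjusted p = 0.053, 0% called). With DESeq2 in place of edgeR, Mrvi1 (adjusted p = 0.0218) and Pde3a (adjusted p = 0.0423) passed by title. Thus 2 of the 9 members did, beside 3.37% of 19295 loci with an adjusted p-value, and DESeq2 was not fitted by genotype entry. The combined criterion of a change of more than 2-fold in either direction and an unadjusted p under 0.05, which 3.47% of all loci passed, was met by 0 members. The groups did not overlap for 2 members, both higher in ApoE-/-NPRC-/- aortas, against a background of 3.72% of loci in that direction. Over the 9 members, 7 fold changes were above 0 and 2 below (49.1% of all loci were above 0), with a median of 0.13 on the log2 scale, beside -0.006 for all loci tested. Markers of smooth muscle were also higher in ApoE-/-NPRC-/- libraries (median log2 fold change 0.67 over 12 genes), and in whole aorta more cells of a type and more RNA per cell cannot be told apart. Without ApoE-/-NPRC-/- 1, 6 members passed the unadjusted threshold, and without ApoE-/- 5, 5 did. Leaving out any other single library gave 2. The share of all loci passing in those fits is not given here, so these counts are not read as a result about the members.

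Grouped by genotype entry instead, 0 of the 9 members had an unadjusted p-value under 0.05 in edgeR's quasi-likelihood test, beside 1.31% of all loci, and the smallest adjusted p-value was 1 (0% of loci called). The largest fold change of a member was then 0.23 on the log2 scale, and the median was 0.11. The unadjusted calls that follow thus hold by title and not by genotype entry, and which label applies was not settled here.

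**Figure D1:**
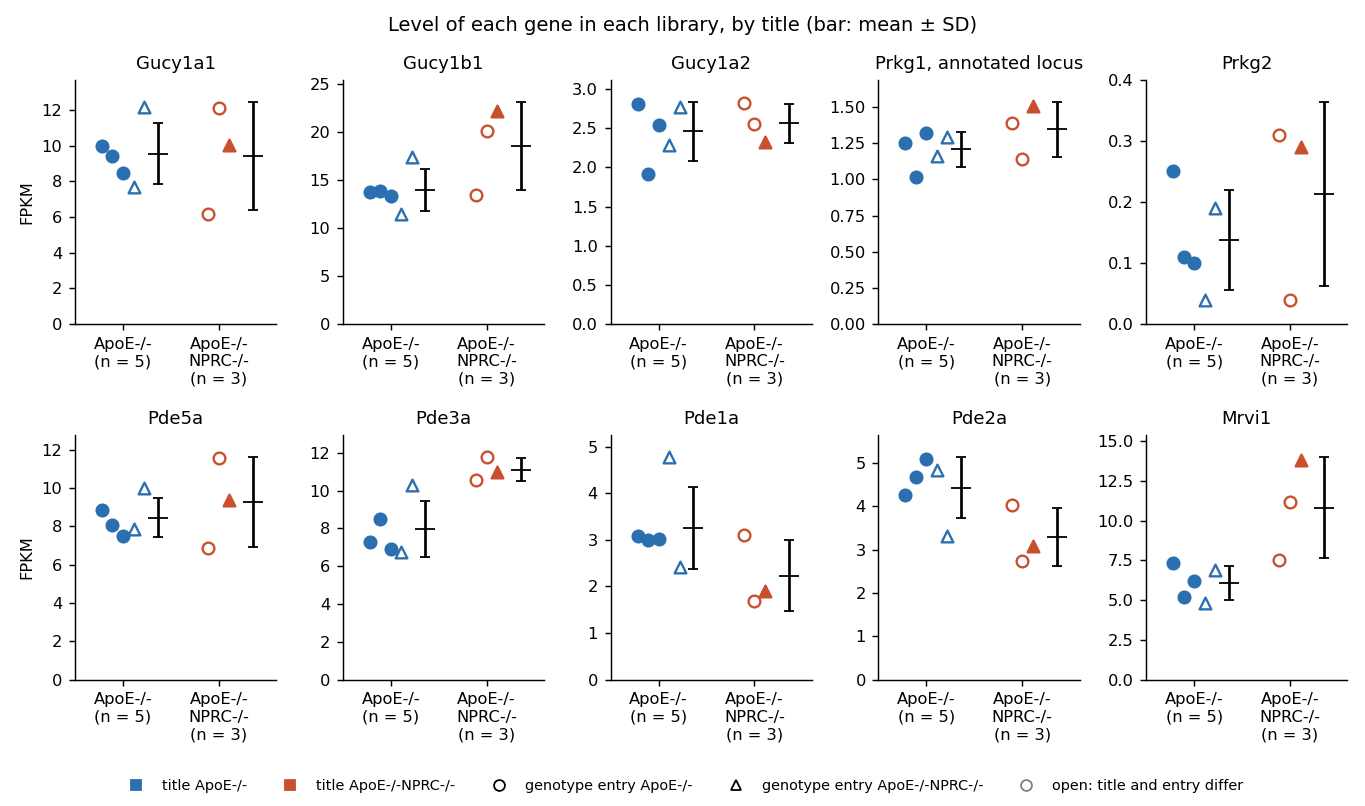
FPKM of each gene (y axis, from 0) in the 5 libraries titled ApoE-/- and the 3 titled ApoE-/-NPRC-/-, with black bars for the mean and SD; circles and triangles give the genotype entry, and open symbols mark the 4 libraries in which it contradicts the title. The 3 ApoE-/-NPRC-/- points lie above all 5 ApoE-/- points for Pde3a and Mrvi1, while the other panels overlap.

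**Figure D2:**
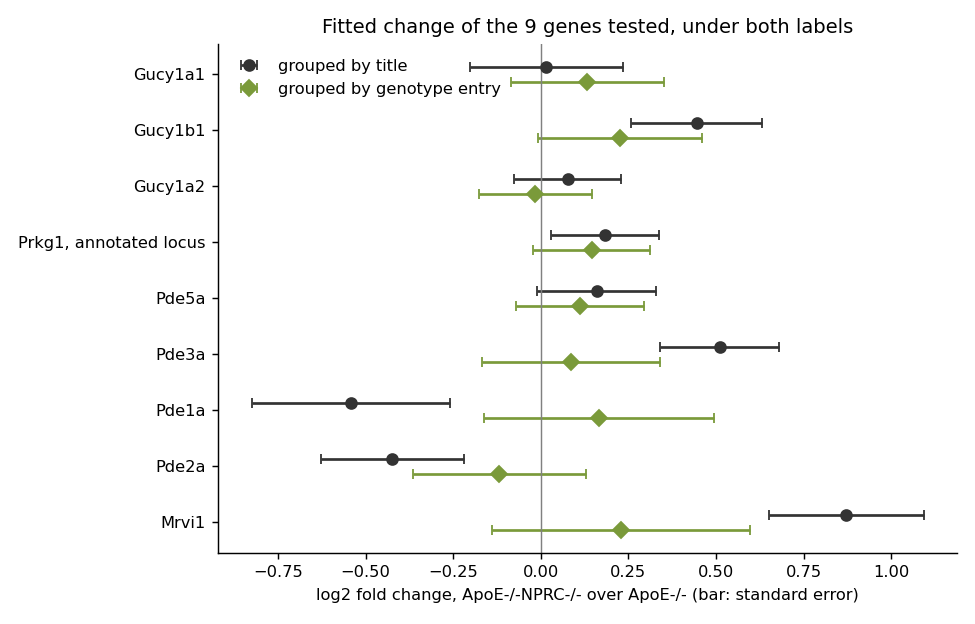
Log2 fold change of ApoE-/-NPRC-/- over ApoE-/- (x axis) of the 9 genes tested, with the standard error as the bar, grouped by title (circles) and by genotype entry (diamonds). By title Mrvi1 reaches 0.87 and Pde1a -0.54, and by genotype entry no gene lies farther from 0 than 0.23.

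The subunits of soluble guanylate cyclase come first. Gucy1b1 and Gucy1a1, which encode the beta-1 and alpha-1 subunits, lie on chromosome 3 of GRCm38 in the same orientation (minus strand, Gucy1b1 from 82032006 to 82074689 and Gucy1a1 from 82092427 to 82145789), with 17.7 kb between them. Gucy1b1 was at 13.77, 13.91, 13.29, 11.45 and 17.45 FPKM in ApoE-/- 1 to 5 and at 13.44, 20.08 and 22.19 FPKM in ApoE-/-NPRC-/- 1 to 3. ApoE-/-NPRC-/- 2 and 3 were the highest of the 8, and ApoE-/-NPRC-/- 1 lay within the ApoE-/- range, so the groups overlapped. The log2 fold change was 0.45 (SE 0.19, unadjusted p = 0.0412, adjusted p = 0.35), and 0.23 (SE 0.23) by genotype entry. Leaving out 1 of ApoE-/- 1, 2, 3 or 4 or of ApoE-/-NPRC-/- 2 or 3 raised its unadjusted edgeR p-value above 0.05, to at most 0.206.

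The groups overlapped for Gucy1a1. It was at 9.99, 9.39, 8.48, 7.7 and 12.17 FPKM in the ApoE-/- libraries and at 6.16, 12.1 and 10.02 FPKM in the ApoE-/-NPRC-/- libraries, which held both the lowest value of the 8 and the second highest. Its log2 fold change was 0.02 (SE 0.22, unadjusted p = 0.942, adjusted p = 0.98), and the sign changed in 6 of 21 alternatives. Its locus also carries the microRNA gene Mir7010, whose reads cannot be separated.

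Since the protein works as a dimer, the ratio of Gucy1a1 to Gucy1b1 was taken within each library. It was 0.725, 0.675, 0.638, 0.672 and 0.697 in ApoE-/- 1 to 5 and 0.458, 0.603 and 0.452 in ApoE-/-NPRC-/- 1 to 3. All 3 ApoE-/-NPRC-/- values lay below the lowest ApoE-/- value. The mean log2 ratio was -0.55 ± 0.07 (SD, n = 5) against -1.0 ± 0.23 (SD, n = 3). The difference of -0.45 had a two-sided exact permutation p-value of 0.036, the smallest that 56 splits can give, and 0.144 after Benjamini-Hochberg adjustment over the 20 ratios compared by title, so it did not pass the correction. Leaving out each library in turn gave differences from -0.58 to -0.37, and by genotype entry the difference was -0.04 (exact permutation p = 0.929).

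Gucy1a2, the alternative alpha-2 subunit, is on chromosome 9 (plus strand, 3532778 to 3894736). It was the least abundant of the subunits, from 1.91 to 2.81 FPKM in ApoE-/- and from 2.32 to 2.82 FPKM in ApoE-/-NPRC-/- libraries. The groups overlapped (log2 fold change 0.08, SE 0.15, adjusted p = 0.845 in edgeR). It was at 0.105 to 0.21 of the Gucy1b1 level across the 8 libraries.

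**Figure D3:**
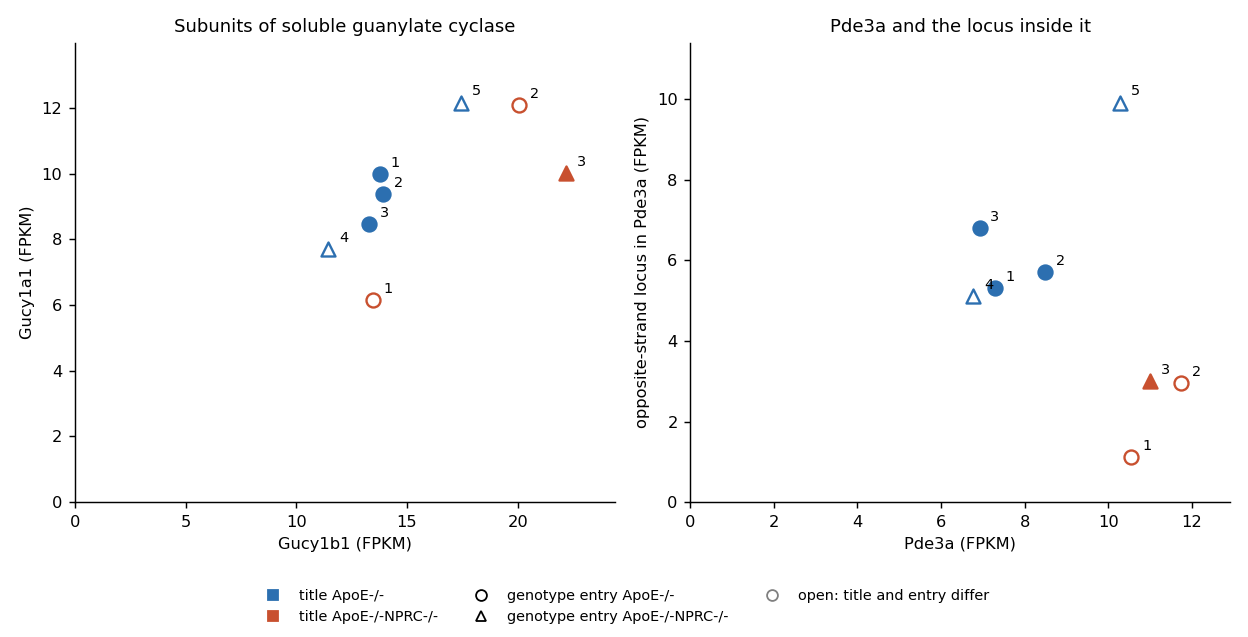
Left, FPKM of Gucy1a1 (y axis) against Gucy1b1 (x axis); right, FPKM of an opposite-strand locus inside Pde3a (y axis) against Pde3a (x axis). Each point is 1 library, numbered within its titled group, with colours for the title, shapes for the genotype entry and open symbols where they differ; on the left the ApoE-/-NPRC-/- points have less Gucy1a1 for their Gucy1b1 than every ApoE-/- point, and on the right they combine more Pde3a with less of the other locus.

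The RefSeq sequence before the start of Gucy1b1 is shown because the ratio of Gucy1a1 to it differed by title before adjustment. That difference did not pass adjustment and was -0.04 on the log2 scale by genotype entry. The upstream sequence of Gucy1a1 is given beside it, and that of Mrvi1 because this member had the largest fold change by title. The build is GRCm38.p6, all are on the minus strand and run 5′ to 3′, and only bases outside the annotated gene are printed. Gucy1b1 covers chr3:82074712-82074961, Gucy1a1 chr3:82145790-82145900 and Mrvi1 chr7:110982462-110982711. Capitals mark the GC box (GGGCGG, or CCGCCC on the other strand) and the core of the cAMP response element (TGACG, or CGTCA on the other strand).
Gucy1b1: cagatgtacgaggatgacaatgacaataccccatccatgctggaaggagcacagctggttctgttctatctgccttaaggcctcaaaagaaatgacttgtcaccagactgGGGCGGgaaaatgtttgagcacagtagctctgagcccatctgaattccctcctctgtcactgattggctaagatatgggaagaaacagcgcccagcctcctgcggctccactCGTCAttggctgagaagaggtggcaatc
Gucy1a1: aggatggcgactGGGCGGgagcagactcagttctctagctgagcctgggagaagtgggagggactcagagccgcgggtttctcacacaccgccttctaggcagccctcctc
Mrvi1: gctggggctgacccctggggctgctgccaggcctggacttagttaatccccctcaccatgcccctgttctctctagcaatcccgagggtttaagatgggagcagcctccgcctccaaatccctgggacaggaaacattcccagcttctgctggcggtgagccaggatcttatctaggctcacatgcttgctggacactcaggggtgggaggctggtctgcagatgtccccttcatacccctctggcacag

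RefSeq promoter windows were found for 8 of the 10 members, 18 windows in all, and the 250 bases before each start were searched on both strands. A GC box was in 7 of the 18 windows, those of Gucy1b1 and Gucy1a1 included, beside 32.7% of 32851 windows of genes outside chromosome 18. The core of the cAMP response element was in 3 of the 18, including the Gucy1b1 window, beside 17.8% of the 32851 windows. The CArG box of smooth muscle genes was in 0 of the 18, beside 1.47% of the 32851 windows, and no motifs overlapped in the windows printed. The Mrvi1 window printed above held none of these letters.

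Among the phosphodiesterases, Pde3a was higher in all 3 ApoE-/-NPRC-/- libraries, whereas the groups overlapped for Pde5a, Pde1a and Pde2a. Pde3a, which breaks down cAMP and is inhibited by cGMP, is on chromosome 6 (plus strand, 141249269 to 141507448). It was at 7.29, 8.49, 6.92, 6.77 and 10.29 FPKM in ApoE-/- 1 to 5 and at 10.55, 11.75 and 11 FPKM in ApoE-/-NPRC-/- 1 to 3. The groups did not overlap but ApoE-/- 5 and ApoE-/-NPRC-/- 1 lay close to each other. The log2 fold change was 0.51 (SE 0.17, unadjusted p = 0.0147, adjusted p = 0.29), and 0.09 (SE 0.26) by genotype entry. The exact permutation p-value by title was 0.0357, the smallest possible, and leaving out each library in turn kept the unadjusted p-value at or under 0.0495 in edgeR's quasi-likelihood test.

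The length by which the Pde3a count was divided to give its FPKM, worked back from both, was 143.6 kb, whereas the longest annotated Pde3a transcript is 12.3 kb. The locus also carries the name Gm43958. Inside the gene, on the opposite strand and without an annotated exon of Pde3a, lay another locus of 37.4 kb. This locus was at 5.31, 5.72, 6.8, 5.12 and 9.92 FPKM in ApoE-/- 1 to 5 and at 1.12, 2.95 and 3.01 FPKM in ApoE-/-NPRC-/- 1 to 3. By title it was thus lower in ApoE-/-NPRC-/- libraries, whereas Pde3a was higher, both with no overlap. The log2 fold change of this locus was -1.44 (SE 0.37, exact permutation p = 0.0357, edgeR quasi-likelihood unadjusted p = 0.00346 and adjusted p = 0.255). Within each titled group, however, the locus was lowest in the library with the least Pde3a (ApoE-/- 4 and ApoE-/-NPRC-/- 1). It was also highest where Pde3a was highest among ApoE-/- libraries (ApoE-/- 5), though not among ApoE-/-NPRC-/- libraries. Its log2 ratio to Pde3a differed by -2.06 by title (exact permutation p = 0.036, 0.144 after adjustment over the 20 ratios) and by 0.48 by genotype entry. The 2 other opposite-strand loci named Pde3a had log2 fold changes of 0.24 (SE 0.33) and 0.22 (SE 0.20). The libraries were made with a dUTP protocol that marks the strand, but whether the counting used it is not given in the sources used here. When all 4 loci named Pde3a were summed, the log2 fold change was 0.30 (unadjusted p = 0.131, adjusted p = 0.481), which ends the unadjusted call.

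Pde5a, the cGMP-specific enzyme that sildenafil inhibits, is on chromosome 3 (plus strand, 122728947 to 122859374). It was at 8.85, 8.06, 7.5, 7.87 and 10.0 FPKM in ApoE-/- and at 6.89, 11.54 and 9.35 FPKM in ApoE-/-NPRC-/- libraries. The ApoE-/-NPRC-/- values spanned the ApoE-/- range on both sides. Its log2 fold change was 0.16 (SE 0.17, unadjusted p = 0.377, adjusted p = 0.70), and 0.35 without ApoE-/-NPRC-/- 1 (unadjusted p = 0.0345, adjusted p = 0.198).

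Pde1a and Pde2a had fold changes below 0. Pde1a, a phosphodiesterase activated by calcium and calmodulin, is on chromosome 2 (minus strand, 79834453 to 80129458). It was at 3.08, 3.0, 3.03, 4.77 and 2.41 FPKM in ApoE-/- and at 3.11, 1.68 and 1.91 FPKM in ApoE-/-NPRC-/- libraries. ApoE-/-NPRC-/- 2 and 3 were the lowest of the 8 and ApoE-/- 4 the highest. The log2 fold change was -0.54 (SE 0.28, unadjusted p = 0.0876, adjusted p = 0.427), and by genotype entry it had the other sign, 0.17 (SE 0.33).

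Pde2a, which cGMP stimulates and which breaks down both cyclic nucleotides, could not be measured alone. The gene is on chromosome 7 (plus strand, 101421691 to 101512827). Its locus also carried Arap1 and Gm45837, and it was at 4.25, 4.68, 5.09, 4.83 and 3.32 FPKM in ApoE-/- and at 4.04, 2.74 and 3.08 FPKM in ApoE-/-NPRC-/- libraries. The groups overlapped through ApoE-/- 5 and ApoE-/-NPRC-/- 1. The log2 fold change was -0.42 (SE 0.20, unadjusted p = 0.0672, adjusted p = 0.394), and leaving out ApoE-/-NPRC-/- 1 brought the unadjusted p-values of Pde1a and Pde2a to 0.0235 and 0.0354, with ApoE-/- 5 left out to 0.0432 and 0.0153.

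The kinase that receives the signal is encoded by Prkg1, on chromosome 19 (minus strand, 30564489 to 31765033), of which 0.90% is annotated as exon. The name was attached to 28 loci, and 27 of them covered no annotated exon. The locus with the most counts, 17.4% of all counts under the name, lay within an intron on the opposite strand. It was at 3.94, 2.87, 4.26, 3.14 and 4.34 FPKM in ApoE-/- and at 3.7, 3.86 and 4.4 FPKM in ApoE-/-NPRC-/- libraries (log2 fold change 0.13, SE 0.18, unadjusted p = 0.482, adjusted p = 0.769). The locus that holds the annotated transcripts had 5.7% of the counts and was read as Prkg1 as well. It was at 1.25, 1.02, 1.32, 1.16 and 1.29 FPKM in ApoE-/- and at 1.39, 1.14 and 1.51 FPKM in ApoE-/-NPRC-/- libraries. These ranges overlapped, and the log2 fold change was 0.18 (SE 0.16, unadjusted p = 0.270, adjusted p = 0.617), and 0.15 by genotype entry.

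Of the 28 loci named Prkg1, 23 had a fold change above 0 by title, from -0.40 to 0.63 on the log2 scale with a median of 0.18. The unadjusted p-value was under 0.05 for 3, all of them higher in ApoE-/-NPRC-/- libraries, beside 6.51% of all loci, and by genotype entry for 0. Loci within 1 gene are not replicates of each other. The log2 ratio of the annotated locus to Pde5a was -2.81 ± 0.19 (SD, n = 5) in ApoE-/- and -2.76 ± 0.53 (SD, n = 3) in ApoE-/-NPRC-/- libraries (exact permutation p = 0.893).

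**Figure D4:**
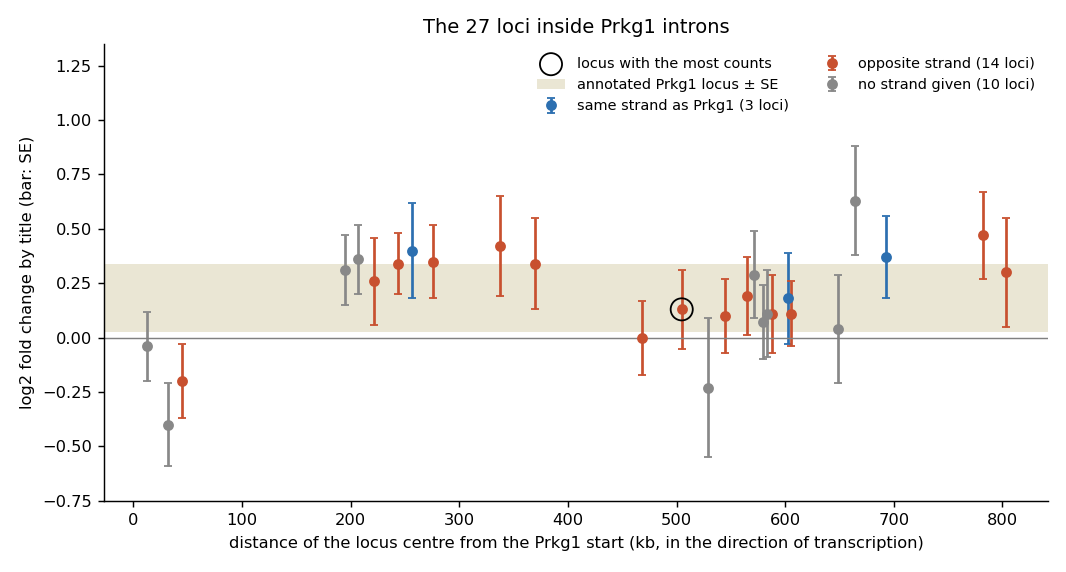
Log2 fold change by title (y axis, bars give the standard error) of the 27 loci inside Prkg1 introns against the distance of their centre from the start of the gene (x axis, kb); colours give the strand relative to Prkg1, the ring marks the locus with the most counts and the band the annotated locus ± SE. Values run from -0.40 to 0.63, and most points lie above 0.

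Prkg2, on chromosome 5 (minus strand, 98929773 to 99037351), encodes the other cGMP-dependent kinase. It is known mainly from intestine, bone and brain and was close to 0 in these libraries. Its level was 0.25, 0.11, 0.1, 0.04 and 0.19 FPKM in ApoE-/- and 0.31, 0.04 and 0.29 FPKM in ApoE-/-NPRC-/- libraries, under the filter of 1 FPKM in 3 libraries. With 702 counts over all 8 libraries, the log2 fold change without that filter was 0.66 (SE 0.65, adjusted p = 0.69 in edgeR). Its counts ran from 23 to 134 in ApoE-/- and from 15 to 173 in ApoE-/-NPRC-/- libraries, so libraries of 1 group differed widely.

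Mrvi1, on chromosome 7 (minus strand, 110868266 to 110982461), had the largest fold change of the members. The protein it encodes is phosphorylated by the cGMP kinase and damps calcium release through the inositol trisphosphate receptor. It was at 7.31, 5.17, 6.19, 4.81 and 6.87 FPKM in ApoE-/- 1 to 5 and at 7.53, 11.17 and 13.8 FPKM in ApoE-/-NPRC-/- 1 to 3. The groups did not overlap, with ApoE-/-NPRC-/- 1 just above ApoE-/- 1. The log2 fold change was 0.87 (SE 0.22, unadjusted p = 0.00339, adjusted p = 0.26 in edgeR's quasi-likelihood test), a 1.83-fold difference, and the exact permutation p-value was 0.0357. By genotype entry it was 0.23 (SE 0.37). Leaving out each library in turn kept the unadjusted p-value at or under 0.0188. In the 4 libraries whose title and genotype entry name the same genotype, the log2 difference was 1.25, with a single ApoE-/-NPRC-/- library and thus no test.

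The 3 further loci named Mrvi1 lay within the gene on the opposite strand. Their log2 fold changes were 1.12 (unadjusted p = 0.0133), 1.11 (unadjusted p = 0.188) and 0.95 (unadjusted p = 0.0111, smallest adjusted p of the 3 = 0.285), so they had the direction of Mrvi1 itself, unlike the 37.4 kb locus inside Pde3a. The log2 ratio of the most counted Prkg1 locus to Mrvi1 differed by -0.69 between the groups, without overlap (exact permutation p = 0.036, 0.144 after adjustment over the 20 ratios). With the annotated Prkg1 locus in its place the difference was -0.66 and the groups overlapped (exact permutation p = 0.071, adjusted 0.158). By genotype entry these differences were -0.01 and 0.02.

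Across the 8 libraries, Gucy1b1 had the highest FPKM of the members and Prkg2 the lowest in every library. By median, Gucy1a1 (9.69 FPKM), Pde3a (9.39 FPKM) and Pde5a (8.46 FPKM) followed, then Mrvi1 (7.09 FPKM). The ranges of these 4 overlapped, so their order is not resolved. The order also rests on the length in each FPKM, which was 4.2 kb for Gucy1b1 against an annotated 3.2 kb, but 28.9 kb for Mrvi1 against 6.2 kb and 34.1 kb for Pde1a against 4.3 kb. Levels of different members are thus not on the same footing.

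Other genes of the pathway were counted from lists. Beside each such count by title, 6.51% of all loci were higher and 7.13% lower at an unadjusted edgeR p-value under 0.05. Of 9 further guanylate cyclases and natriuretic peptide receptors, 3 were tested and 2 were higher by title at an unadjusted p-value under 0.05. Npr1, the receptor of atrial and B-type natriuretic peptide, had a mean of 13.5 FPKM in ApoE-/- and 20.3 FPKM in ApoE-/-NPRC-/- libraries (log2 fold change 0.62, SE 0.16, unadjusted p = 0.00357, adjusted p = 0.255). Npr2, the receptor of C-type natriuretic peptide, had means of 12.04 and 14.4 FPKM (0.28, SE 0.11, unadjusted p = 0.0338, adjusted p = 0.332). The 6 cyclases that did not pass the filter, among them Gucy1b2 and Gucy2c, reached at most 1.18 FPKM.

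Of the nitric oxide synthases and the haem reductase of guanylate cyclase, 3 of 4 were tested and 0 had an unadjusted edgeR p-value under 0.05. Nos3, the endothelial synthase, had a log2 fold change of -0.12 (SE 0.17). Of 12 other cGMP phosphodiesterases, 3 were tested, and Pde1b, activated by calmodulin like Pde1a, was lower with a log2 fold change of -0.79 (SE 0.30, unadjusted p = 0.0274). Pde3b had a log2 fold change of -0.02, while Pde1c (at most 0.21 FPKM) and Pde9a (at most 0.64 FPKM) were under the filter. Of 8 cAMP-specific phosphodiesterases, 6 were tested, and Pde7b was lower (log2 fold change -1.19, SE 0.23, unadjusted p = 0.000614, adjusted p = 0.20). Of 8 export pumps and cyclic nucleotide-gated channels, 2 were tested and 0 had an unadjusted p-value under 0.05.

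Among 12 substrates and partners of the kinase, 10 were tested, with a list median of 0.54 on the log2 scale. By title, 4 were higher at an unadjusted edgeR p-value under 0.05 and 1 was lower, beside 6.51% and 7.13% of all loci. Those higher were Itpr1 (0.47), the calcium-release channel on which the Mrvi1 protein acts, Kcnma1 (0.79), the large-conductance potassium channel, Ppp1r14a (1.07), an inhibitor of myosin phosphatase, and Cnn1 (0.66), the smooth muscle protein calponin, which is also in the smooth muscle list below. Rgs2, which ends signalling by G-protein-coupled receptors, was lower (-1.07). Vasp, whose phosphorylation is a usual readout of the kinase, had a log2 fold change of -0.10 (SE 0.14, unadjusted p = 0.502). Ppp1r12a, the targeting subunit of myosin phosphatase, was at 0.41 (SE 0.19, unadjusted p = 0.0603). By genotype entry, 1 gene of all these lists had an unadjusted edgeR p-value under 0.05, beside 1.31% of all loci. That gene was Lasp1 (-0.83, unadjusted p = 0.0357, adjusted p = 1).

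Markers of several cell types moved with the title as well. Beside the counts below, 6.51% of all loci were higher and 7.13% lower by title at an unadjusted edgeR p-value under 0.05. Over 12 smooth muscle markers, all were detected and 11 were higher in ApoE-/-NPRC-/- libraries at an unadjusted edgeR p-value under 0.05 (median log2 fold change 0.67). Their mean level was 8.60 to 8.99 log2 CPM (counts scaled to the library total) in ApoE-/- and 8.89 to 9.80 log2 CPM in ApoE-/-NPRC-/- libraries. All 10 macrophage markers had fold changes below 0 and 5 were lower at that threshold (6.31 to 7.75 against 5.67 to 6.88 log2 CPM). Of 7 peripheral nerve markers, 5 were tested and 4 were lower (1.85 to 3.52 against -1.15 to -0.07 log2 CPM, no overlap), and of 7 fibroblast markers 2 were lower. Of 10 endothelial markers 1, Erg, was higher, and the list was level between 6.13 and 6.38 log2 CPM. By genotype entry, 0 of the 12 smooth muscle and 0 of the 10 macrophage markers had an unadjusted edgeR p-value under 0.05 (median log2 fold changes 0.23 and -0.17). The part of cell makeup in the members' differences was not tested.

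The members differed in how they stood to the smooth muscle markers. Across the 8 libraries Gucy1b1 had a Pearson r of 0.956 with the mean of the smooth muscle list (exact permutation p = 0.00127, 0.00756 adjusted over the 10 members) and a Spearman rho of 0.905 (exact p = 0.00456, adjusted 0.0362). Mrvi1 had an r of 0.961 (exact p = 0.00151, adjusted 0.00756) and a rho of 0.786 (exact p = 0.0279, adjusted 0.0931). Pde3a followed with an r of 0.800 (exact p = 0.010, adjusted 0.0333) and a rho of 0.714 (exact p = 0.0576, adjusted 0.144). The list markers and these members were also higher by title, and the tests permuted all 8 libraries without regard to it. Their p-values thus do not separate a relation between libraries from the difference between the titled groups. The relations of these members lean on ApoE-/-NPRC-/- 2 and 3, the libraries farthest from the median of the list, without which r was 0.65, 0.70 and 0.47. The most counted Prkg1 locus, in an intron on the opposite strand, had an r of 0.668 (exact p = 0.0730, adjusted 0.117). Its rho was 0.881 (exact p = 0.00724, adjusted 0.0362), and its r without those libraries was 0.83. The annotated Prkg1 locus had an r of 0.569 (exact permutation p = 0.150) and a rho of 0.429 (exact permutation p = 0.299). Its r without those libraries was 0.75. Gucy1a1 had an r of 0.477 (exact p = 0.231) and a rho of 0.571 (exact p = 0.151), and without those libraries r was -0.0027. Pde1a ran the other way, with an r of -0.758 (exact p = 0.0293, adjusted 0.0732) and a rho of -0.643 (exact p = 0.0962).

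Set against the smooth muscle list within each library, the log2 difference by title was -0.67 for Gucy1a1 and -0.22 for Gucy1b1. Both were without overlap (exact permutation p = 0.036 each, 0.144 after adjustment over the 20 ratios). By genotype entry these differences were -0.01 (exact permutation p = 0.964) and 0.03 (exact permutation p = 0.821), with overlap. On that scale, by title, Mrvi1 had a difference of 0.20 (exact permutation p = 0.143) and Pde3a one of -0.11 (exact permutation p = 0.571). The groups overlapped for both, and by genotype entry the differences were -0.04 and -0.08. Every other member was also below 0 by title, with overlap. Of these, Pde1a (-1.17, exact permutation p = 0.107) and Pde2a (-1.05, exact permutation p = 0.071) lay farthest from 0. By genotype entry these 2 members were at -0.09 and -0.28, also with overlap. The mean level of the list itself was higher by 0.63 in ApoE-/-NPRC-/- libraries by title, and by 0.17 by genotype entry.

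**Figure D5:**
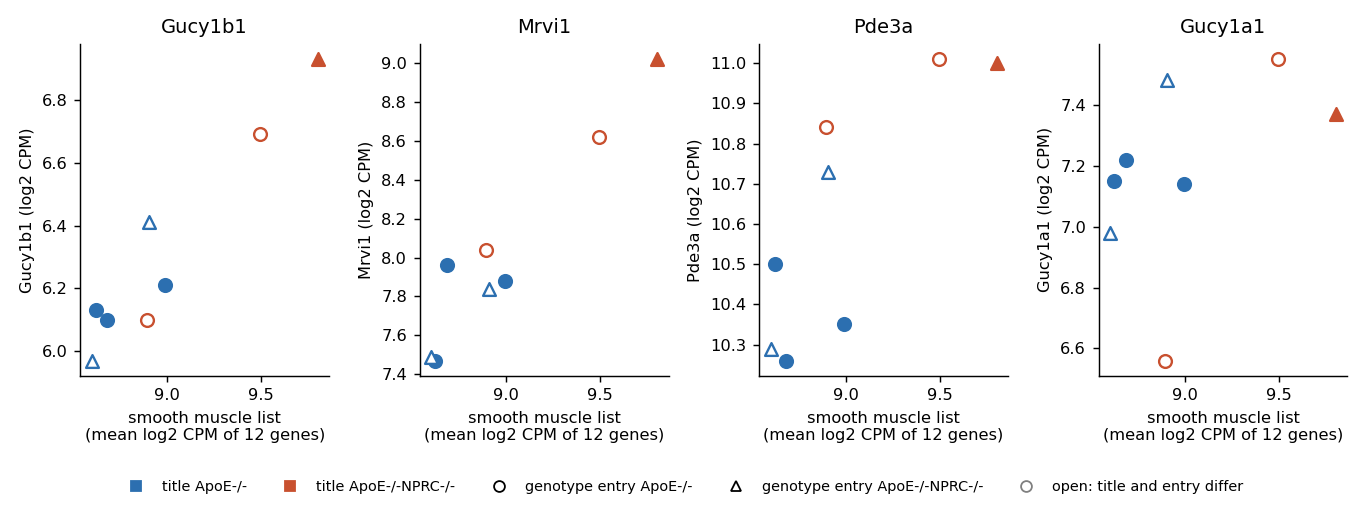
Log2 CPM of Gucy1b1, Mrvi1, Pde3a and Gucy1a1 (y axes) against the mean log2 CPM of 12 smooth muscle genes (x axes) in the 8 libraries; colours give the title, shapes the genotype entry, and open symbols a contradiction of both. ApoE-/-NPRC-/- 2 and 3 have the highest level of the list and of Gucy1b1, Mrvi1 and Pde3a, while Gucy1a1 is lowest in ApoE-/-NPRC-/- 1.

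The genes whose level was most like that of 3 members across the 8 libraries were looked up as a description. For Gucy1a1 they were Gm3555 (r = 0.993), Ncoa5 (0.984) and Gm23940 (0.981). For the most counted Prkg1 locus they were Prr15 (0.984) and 2 loci named Fbn1 (0.972 and 0.971), the fibrillin of elastic microfibrils. The annotated Prkg1 locus was most like Zfp383 (0.959), a locus of Ep400 (0.953) and Wdr48 (0.948). For Pde5a they were Gm47205 (0.985), Zfp385b (0.984) and Unc5c (0.982). These are the highest values among those of the 20506 tested loci that carry a gene name, without the member's own loci. The 8 libraries share their titled groups.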

How the data were processed

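The libraries were prepared from poly(A) RNA of entire aortas with a dUTP protocol and sequenced in paired reads. The submitters' processing notes name cutadapt 1.9, FastQC and the build GRCm38. HISAT2 served the authors for mapping and StringTie for assembly. For 48607 loci they deposited a count per library that is not normalized and an FPKM value. The FPKM is scaled to a length assigned to each locus and to mapped fragments. How the counts were made, and whether strand was used, is not given in the sources used here. The study's methods give 5 mice per group, and 8 libraries were analysed here. All value columns of the table matched a sample (0 did not).

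The members and gene lists were chosen with earlier results of these data known. A locus was tested on its counts if 3 or more libraries held it at 1 FPKM or above (20506 loci), with edgeR 4.0.16 in R 4.3.3, using TMM normalization, the quasi-likelihood test and Benjamini-Hochberg adjustment over all loci. The biological coefficient of variation was 0.327. All 10 members, Npr3, and the genes of the pathway lists with an unadjusted p-value under 0.05 or listed by the rule are named. So are the 3 loci of other named genes most like Gucy1a1, Prkg1 and Pde5a by Pearson r of log2 CPM (prior count of 2). For a symbol with several loci the one with the most counts was used. Single values were compared by two-sided exact permutation tests over 56 splits (smallest p 0.036), which double the smaller tail. The lengths behind the FPKM values were calibrated on 767 single-exon loci, and gene positions come from GENCODE M21. The fit was tested on simulated data. Alternatives covered DESeq2 1.42.0, limma 3.58.1 on log2(FPKM + 1) and log2(FPKM + 0.1), scaling, filters, the locus taken for a name, the label, the replicate block and each library left out. The libraries differed from each other far beyond sampling noise (smallest mean chi-square per locus 98.9), so each was counted as a sample of its own.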

Additional observations from a re-analysis of the deposited data

Results flagged for a closer look

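In 3 of 42 groups of 5 libraries examined for the members, 1 library stood apart from the rest by Dixon's test, where chance gives about 2.1. All 3 were in the group formed by the genotype entry ApoE-/-. Gucy1b1 was highest in the library titled ApoE-/-NPRC-/- 2, at 6.69 log2 CPM, with the next library at 6.21. Pde1a was lowest in the same library, at 6.13 log2 CPM, with the next at 6.93. Gucy1a2 was lowest in ApoE-/- 2, at 4.14 log2 CPM, with the next at 4.60.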

How the results depend on the processing

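Grouped by genotype entry, 0 members had an unadjusted edgeR p-value under 0.05, beside 1.31% of all loci. The difference of the Gucy1a1 to Gucy1b1 ratio was then -0.04, and Gucy1a2 (-0.02) and Pde1a (0.17) changed sign. In the 4 libraries whose labels match, the median log2 fold change of the members was 0.29, and among members with a mean of at least 5 FPKM it was 0.53. Leaving out each library in turn gave 2 to 6 members with an unadjusted p-value under 0.05, 0 to 1 meeting the fold criterion, a median of 0.04 to 0.26, and log2 fold changes from -0.16 to 0.26 for Gucy1a1 and from -0.01 to 0.13 for Gucy1a2. Gucy1a1 was at -0.05 with limma under both pseudocounts. RLE or upper-quartile scaling and DESeq2 each left 3 members under the unadjusted threshold. The share of all loci passing is not given for these fits, for those leaving out a library or for the block fits below. Their counts are thus not read as a result about the members. No member had an adjusted p-value under 0.05 in any edgeR or limma fit. With DESeq2, fitted by title only, 2 members did, Pde3a and Mrvi1, beside 3.37% of loci with an adjusted p-value. Of 276 recomputed values, 233 kept their direction and side of the threshold and 9 changed sign. With the numbers of the titles as a replicate block in 6 libraries, 2 members passed the unadjusted threshold and Gucy1a1 was at -0.01, beside 3 members in the same libraries without the block. Deviations of same-numbered libraries had correlations of -0.274, -0.128 and -0.012, so the numbers were not taken to pair the libraries. Gucy1b1 lost its unadjusted call in 11 of 21 alternatives, and over the alternatives the adjusted p-value of edgeR, DESeq2 or limma ran from 0.0804 to 1 for Gucy1b1, from 0.0423 to 1 for Pde3a and from 0.0218 to 1 for Mrvi1. Prkg2, with 702 counts in all, was under the filter on low values. For the changes named here the cause was not tested.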
